A study of Mus musculus with 7 samples.

Results

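Neutrophils carry their antimicrobial and matrix-cutting proteins in granules, and the genes of 9 such proteins were followed here in leukocytes of infarcted mouse heart and of blood. Mpo and Elane stood for the primary granules, Ltf, Camp, Ngp, Lcn2 and Cd177 for the secondary granules, and Mmp8 and Mmp9 for the tertiary granules. The genes were chosen by symbol. Each had 1 row in all 7 count matrices, among 27998 gene rows in the CD45+ libraries and 31053 in the 2 pools. Granules are filled in the bone marrow in a set order, primary granules first, secondary granules next and tertiary granules last. The transcripts of a set are made mainly while its granules form, and those of different sets can overlap. A neutrophil in blood or tissue therefore holds granule proteins whose transcripts it may no longer carry. Mmp8 is also described in secondary granules, and Lcn2 is known to be induced by inflammation in many cell types.

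The mice were C57BL6/J, those of the heart libraries male, and myocardial infarction was made by permanent ligation of the left coronary artery. Viable CD45+ heart cells left unstained by CD45.2 antibody given intravenously were taken at steady state and on days 1, 3 and 5 (5 mice pooled each) and day 7 (3 mice pooled), after a step that lowered the number of neutrophils. For the heart pool, CD11b+ cells, likewise unstained from the circulation, carried a hashtag antibody for day 1 (5 mice), day 3 (5 mice) or day 5 (3 mice) and 10 antibodies against surface proteins. In the blood and heart pool, cells positive for CD11b and negative for Ter119, B220 and NK1.1 came from blood or ischemic heart of mice aged 8 to 10 weeks, without surgery (3 mice), on day 1 or 3 after sham surgery (3 mice each) or on day 1 or 3 after infarction (5 mice each), and Ly6G+ and Ly6G- cells were mixed at about equal numbers. No label used here pairs the 7 hashtags of that pool with blood, heart or surgery, so its hashtags are given as values with no test. The sorts, the depletion and the mixing set the share of neutrophils, which is therefore no measure of how many a heart held.

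Droplet sequencing of 3' ends gave unique molecular identifiers (UMIs), 1 for each transcript caught. Neutrophils were 7, 216, 135, 39 and 27 cells of the CD45+ libraries (steady state, days 1, 3, 5 and 7), 253, 992 and 226 cells of the heart pool (days 1, 3 and 5) and 404 to 1137 cells of each hashtag of the blood and heart pool. Their clusters were found without any granule gene and expressed 7 to 13 of 14 marker genes of neutrophils above other clusters; in the heart pool 1 cluster of 973 cells was named only when compared with the cells not yet named neutrophils, and it held 9.09%, 36.0% and 9.28% of the cells of days 1, 3 and 5. Different clusters held most neutrophils of different days: in the CD45+ libraries 214 of the 216 on day 1 fell in a cluster led by Ngp, Retnlg and Lcn2, and 132 of the 135 on day 3 in a cluster led by G0s2 and Il1r2. The heart pool was clustered on its own, and its neutrophils fell in a cluster led by S100a9, S100a8 and Ccl3, with 45 of 253 on day 1, 777 of 992 on day 3 and 151 of 226 on day 5, and a cluster led by Retnlg, with the others. Median depth was 2094 to 4333 UMIs in neutrophils and 3628.5 to 28665 in all other cells. A level below is the UMIs of a gene per 10000 UMIs of all cells of a class, and a positive cell had at least 1 UMI. For a count of 0 the limit given is that of 3 counts, which was 2.01, 0.295 and 0.389 per 10000 in CD45+ neutrophils of steady state, day 5 and day 7, the shallowest sums. Intervals are exact 95% intervals (Poisson for levels, Clopper-Pearson for shares) and cover counting error only. The 2 pools shared 28 cell barcodes, and any 2 CD45+ libraries shared 0 to 2.

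The genes lie on 5 chromosomes of GRCm38, by the GENCODE annotation: Mpo at chr11:87793581-87804413, Elane at chr10:79886247-79888215, Lcn2 at chr2:32384633-32388252, Mmp9 at chr2:164940780-164955850 and Cd177 at chr7:24743983-24760311. Mmp8 lies at chr9:7558456-7568485, far from Camp (chr9:109847379-109849617), Ngp (chr9:110419747-110423012) and Ltf (chr9:111019271-111042767), which fall within 1195.4 kb. All are protein coding. C/EBP proteins, C/EBP epsilon above all, drive secondary granule genes in the marrow. The stretches before the starts of Ltf, Ngp and Mmp8 are shown since they held a match to C/EBP letters outside the GENCODE gene. They are the bases up to 250 before the RefSeq start (GRCm38.p6) that lie outside the GENCODE gene, 5′ to 3′, with each match to the C/EBP letters TTGCNNAA on either strand in capitals.
Ltf (chr9:111019042-111019270, plus strand): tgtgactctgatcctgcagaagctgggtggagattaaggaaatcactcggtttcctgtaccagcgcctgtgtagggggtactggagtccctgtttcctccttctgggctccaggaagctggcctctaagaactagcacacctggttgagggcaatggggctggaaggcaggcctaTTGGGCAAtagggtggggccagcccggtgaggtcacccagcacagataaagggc
Ngp (chr9:110419558-110419746, plus strand): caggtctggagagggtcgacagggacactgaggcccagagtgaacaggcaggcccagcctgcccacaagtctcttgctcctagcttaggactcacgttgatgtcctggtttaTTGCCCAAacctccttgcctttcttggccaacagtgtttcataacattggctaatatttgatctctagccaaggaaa
Mmp8 (chr9:7558179-7558428, plus strand): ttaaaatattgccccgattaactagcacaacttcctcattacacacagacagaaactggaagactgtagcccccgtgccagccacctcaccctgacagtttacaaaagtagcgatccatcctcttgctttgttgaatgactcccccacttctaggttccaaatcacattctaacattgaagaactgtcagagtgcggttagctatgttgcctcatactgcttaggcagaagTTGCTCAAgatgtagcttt
In the full windows of 250 bases, 4 of the 8 members with an entry held this match, against 9.57% of 32817 mouse windows. The match began 75 bases before the start in Ltf, 138 and 11 in Ngp (the latter inside the GENCODE gene and not shown), 216 in Lcn2 and 19 in Mmp8. Mpo, Elane, Camp and Cd177 held none. The PU.1 letters GGAAGT, sought on both strands, were in the windows of Mpo, Elane, Cd177 and Mmp8 and in 19.7% of all windows, and in Mmp8 they did not overlap the C/EBP match. A match of letters is a description of the sequence, not a binding site.

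Primary granule transcripts were at or near 0 in neutrophils of every sample. Mpo encodes myeloperoxidase, which makes hypochlorous acid, and Elane encodes neutrophil elastase, a serine protease. No UMI of either was counted in neutrophils of the 5 CD45+ libraries or of heart pool day 1. Among the 868768 UMIs of CD45+ day 1 neutrophils, the limit of 3 counts is 0.0345 per 10000. Heart pool day 3 neutrophils held 1 UMI of Mpo and 2 of Elane among 4049759, and no hashtag of the blood and heart pool held more than 1 of either. Neither gene passed the filter on low counts, so neither was tested.

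The one cell with many primary granule transcripts was not named a neutrophil. On day 7 of the CD45+ libraries, a cell of 29319 UMIs in a monocyte/macrophage cluster held 811 UMIs of Elane, 191 of Mpo, 315 of Prtn3 (proteinase 3) and 387 of Ctsg (cathepsin G), with 25 of Camp, 0 of Ngp and 0 of Mmp8. A second cell of 20510 UMIs in the same cluster held 956 UMIs of Camp, 1459 of Ngp, 71 of Ltf, 118 of Lcn2 and 43 of Fcnb (ficolin B, a lectin), with 1 of Mpo and 0 of Elane. These cells were picked out after their values were seen, by at least 20 UMIs of Camp or Elane. One thus held mostly transcripts of the primary members and the other mostly those of the secondary members, in the same library. Whether they were doublets with a macrophage was not tested, and they held 1 UMI each of Csf1r and 11 and 4 of C1qa (in the order given), both macrophage genes. Without them, the other 1764 non-neutrophil cells of day 7 stood at 0.0668 per 10000 for Elane and 0.0255 for Mpo, against 0.776 and 0.193 with them.

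Secondary granule transcripts were high in CD45+ neutrophils on day 1 and far lower in every other sample of heart. The 5 genes together made up 3.51% of the UMIs of CD45+ day 1 neutrophils, 0.133% on day 3, 0.0285% on day 5 and 0.0143% on day 7. In the heart pool the share was 0.272%, 0.0443% and 0.0630% on days 1, 3 and 5, and in the 7 hashtags it ran from 0.0780% (Hashtag 7) to 0.499% (Hashtag 6). The 5 genes are taken in turn.

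Ngp encodes neutrophilic granule protein, a relative of the cathelicidins. At steady state CD45+ neutrophils had 0.671 per 10000 (1 UMI in 7 cells). The level was 176 on day 1 (95% interval 173 to 179), and days 3 and 5 had 0.283 and 0.197, with no UMI counted on day 7. In the heart pool it was 0.0534 on day 1, 0.696 on day 3 and 0.0109 on day 5. The day 1 samples of the 2 experiments thus lay far apart, with 170 of 216 neutrophils positive in the CD45+ library (78.7%) and 6 of 253 in the heart pool (2.37%). Thinned to 1000 UMIs per cell, these shares were 64.4% and 0.412%. The experiments differed in sort, mice, chemistry and the step that lowered neutrophils, and this gap cannot be told apart from those differences.

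Camp encodes cathelicidin, the precursor of an antimicrobial peptide. CD45+ neutrophils had 21.1 UMIs per 10000 on day 1 (20.1 to 22.1), 0.0236 on day 3 and 0.259 on day 7, and none at steady state or on day 5. Camp was not detected on day 1 of the heart pool, where the limit of 3 counts is 0.0267 per 10000, and stood at 0.247 on day 3 and 0.0109 on day 5. Ltf encodes lactoferrin, which binds iron. Its level was 9.68 on CD45+ day 1 (9.04 to 10.4) and 0.142, 0.492 and 0.389 on days 3, 5 and 7, against 0.276, 0.467 and 0.402 in the heart pool, and no UMI was seen at steady state. For Camp, as for Ltf, the CD45+ day 1 sample was the highest of all 15 and its interval overlapped no other.

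On day 3 of the heart pool, the values of Ngp and Camp came mostly from 1 cell. That neutrophil, of 11732 UMIs, held 281 of the 282 Ngp UMIs (99.6%), 88 of the 100 Camp UMIs (88.0%) and 54 of the 189 Ltf UMIs of its day. Without it the levels were 0.00248 for Ngp, 0.0297 for Camp and 0.334 for Ltf. On CD45+ day 1 the transcripts were shared by more cells, 13 of 216 neutrophils holding 50% of the Ngp UMIs and 6 holding 50% of the Camp UMIs. The plot of Ngp against Camp UMIs per cell shows both patterns.

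**Figure D1:**
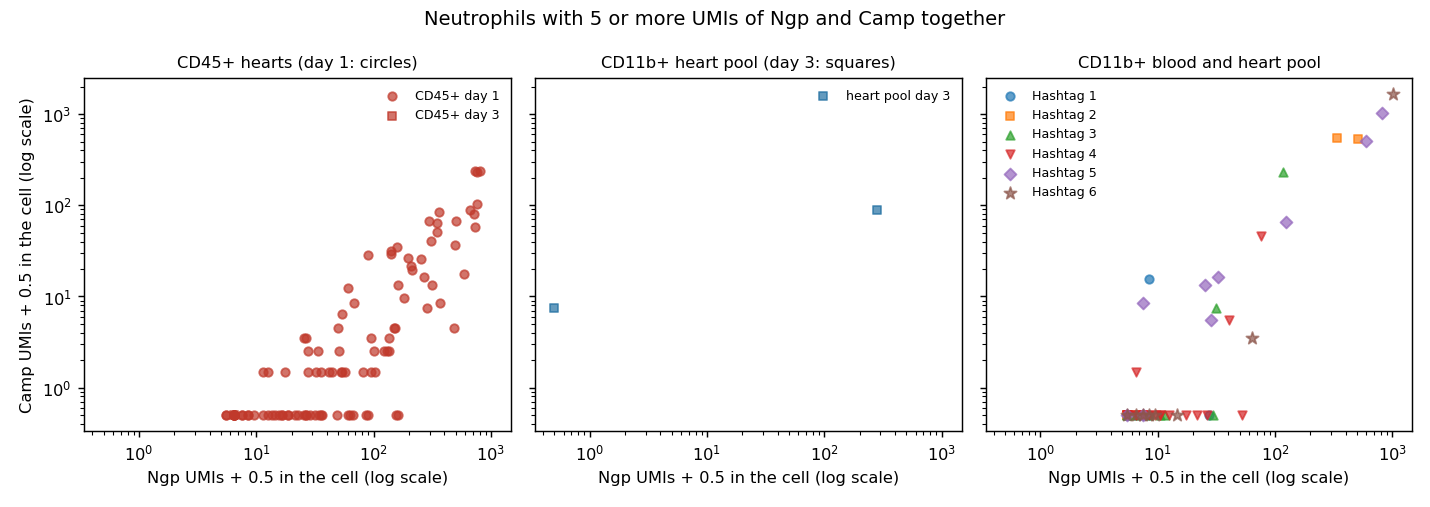
UMIs of Ngp (x axis) and Camp (y axis) in each neutrophil with 5 or more UMIs of both genes together, with 0.5 added and log scales; panels are the experiments and marker shapes the days or hashtags. The CD45+ day 1 library fills its panel beside 1 cell of day 3 (6 Ngp and 0 Camp UMIs). In the heart pool 1 cell of day 3 (281 Ngp and 88 Camp UMIs) stands far from the other cell of that day (0 and 7).

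Within CD45+ day 1, neutrophils with Camp differed from those without in most granule genes. Of 72 neutrophils with Camp, 69 also had Ngp and 43 also had Ltf, and these 43 were 76.8% of the 56 neutrophils with Ltf. Ngp stood at 346 per 10000 in cells with Camp and 28.8 in cells without, Ltf at 20.4 and 0.408, and Mmp8 at 16.8 and 4.88. Lcn2 went the other way, at 112 in cells with Camp and 160 in cells without, as did Il1b, the interleukin-1 beta gene, at 33.1 and 113. The cells with Camp were deeper (median 5364 against 2983.5 UMIs), and the part of depth in these differences was not tested. Neither kind of cell held a UMI of Mki67 or Top2a, genes of dividing cells.

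Lcn2 encodes lipocalin 2, which binds bacterial siderophores. Its level in CD45+ neutrophils was 138 per 10000 on day 1 (135 to 140), against 12.5, 2.07 and 0.778 on days 3, 5 and 7, and no UMI was counted at steady state. Heart pool neutrophils had 24.2 on day 1 (23.3 to 25.1), then 2.88 and 5.68. Day 1 was thus the highest day in both experiments. The share of positive neutrophils went from 98.6% on day 1 to 61.5%, 17.9% and 11.1% in the CD45+ libraries and from 74.3% to 24.0% and 39.8% in the heart pool. Unlike Ngp, Lcn2 was spread over many cells, 53 of the 216 CD45+ day 1 neutrophils holding 50% of it.

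Cd177 encodes a surface receptor of neutrophils that is also stored in secondary granules. Its level was 6.78 per 10000 on CD45+ day 1 (6.24 to 7.35), 0.331 on day 3 and 0.0984 on day 5 (1 UMI), and it was not detected on day 7 or at steady state. In the heart pool it was 2.68 on day 1 (2.39 to 3.00), 0.131 on day 3 and 0.196 on day 5. Positive neutrophils were 60.6% on CD45+ day 1 and 40.7% on heart pool day 1, against 8.89% or less on every later day of either experiment. The intervals of both day 1 samples lay above those of all later days.

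The tertiary granule genes, which encode the metalloproteinases neutrophil collagenase (Mmp8) and gelatinase B (Mmp9), followed different courses. Mmp8 stood at 10.4 per 10000 on CD45+ day 1 (9.75 to 11.1), 3.26 on day 3 and 0.295 on day 5, and was not detected on day 7. In the heart pool it was 1.57 on day 1 (1.34 to 1.82), 0.390 on day 3 and 0.456 on day 5. Mmp8 was thus highest on day 1 in both experiments, with 63.9% and 25.3% of neutrophils positive.

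Mmp9 was present in most neutrophils of every heart sample. CD45+ neutrophils had 10.1 per 10000 at steady state and 5.53, 10.4, 6.00 and 5.45 on days 1, 3, 5 and 7. Those of the heart pool had 21.1, 21.4 and 16.4 on days 1, 3 and 5. Positive neutrophils were 59.3% to 100% in the CD45+ libraries and 87.6% to 94.7% in the heart pool. The experiments differed in sort, mice, the step that lowered neutrophils and the version of the chemistry. The gap between them cannot be told apart from these differences.

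**Figure D2:**
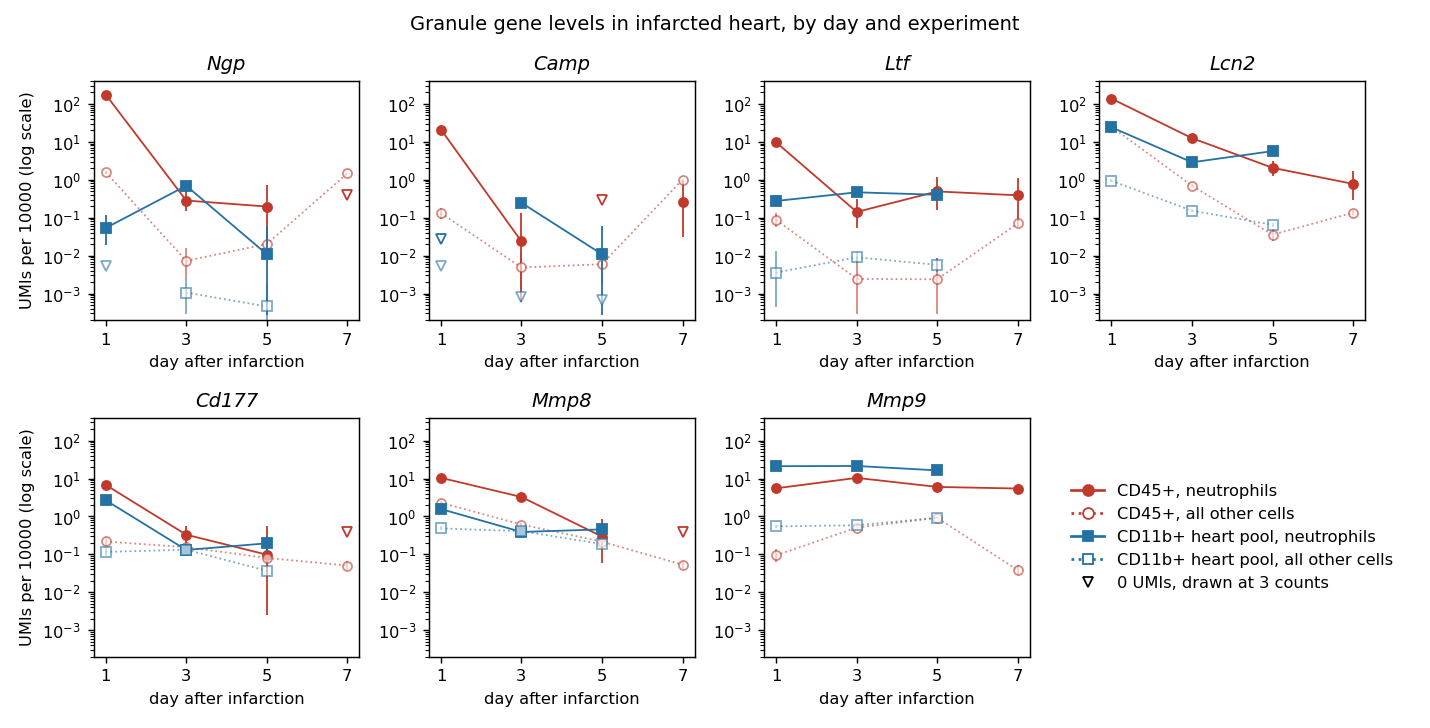
UMIs per 10000 (log scale, exact 95% counting intervals) by day after infarction for 7 granule genes; filled markers are neutrophils and open markers all other cells, in the CD45+ libraries (circles) and the heart pool (squares), and triangles mark 0 UMIs drawn at 3 counts. Lcn2, Cd177 and Mmp8 are highest on day 1 in neutrophils of both experiments, Ngp, Camp and Ltf in the CD45+ libraries but not in the heart pool (where Ngp on day 3 rests on 1 cell), and Mmp9 stays between 5.45 and 21.4 in neutrophils.

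Sums of UMIs over neutrophils of days 1, 3 and 5 of both experiments were compared by edgeR's quasi-likelihood test, with the experiment as a term and Benjamini-Hochberg adjustment over 6175 genes. Each sum stood for 1 pool of mice, so the p-values measure no spread between mice. With the experiment as a term, the spread is how far the 2 experiments differed in their changes between days. It had 2 residual degrees of freedom against a median of 15.22 in the prior, so most of it was borrowed from other genes. Between day 1 and day 3, 146 genes (2.36%) passed an adjusted p of 0.05, 33 higher (0.534%) and 113 lower (1.83%). Cd177 fell by 5.06 on the log2 scale (SE 0.51, adjusted p = 0.00011), Lcn2 fell by 4.03 (SE 0.79, adjusted p = 0.014) and Mmp8 fell by 2.49 (SE 0.58, adjusted p = 0.0307). These were 3 of the 7 members tested, against 1.83% of all genes called lower, and no member rose.

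The other 4 did not pass between day 1 and day 3. Ltf had a log2 change of -3.59 (SE 1.12, adjusted p = 0.106), Camp -3.62 (SE 2.53, adjusted p = 0.483), Ngp -4.31 (SE 3.44, adjusted p = 0.552) and Mmp9 -0.19 (SE 0.42, adjusted p = 0.854). With the top Ngp cell left out of each of the 6 sums, an alternative chosen after the data were seen, Ngp stood at -10.15. This left 1 Ngp UMI in the heart pool day 3 sum, so the size depends on the prior count of the fit. The cells were picked by the same gene that was then compared, so no p-value is given for it. Each fit with 1 sum left out had a day with a single sum and no spread of its own. Only log2 changes are therefore given for these fits. The direction of Ngp changed with single sums. Without CD45+ day 1 it stood at 3.00 and without CD45+ day 3 at 2.66. Without heart pool day 1 it stood at -9.70 and without heart pool day 3 at -9.79. Camp likewise stood at 7.96, 3.79, -10.55 and -10.23 without these sums, in the same order. Ltf stood at 0.048 without CD45+ day 1, -6.33 without heart pool day 1 and -6.13 without heart pool day 3. Without heart pool day 3, Mmp9 stood at 0.19. The median log2 change was -4.03 over the 5 secondary members and 0.01 over all genes tested.

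Between day 1 and day 5, 419 genes (6.79%) passed, 112 higher (1.81%) and 307 lower (4.97%), and 5 of the 7 members tested were among the lower ones. Cd177 fell by 5.19 (SE 0.55, adjusted p = 0.000215), Lcn2 fell by 4.50 (SE 0.85, adjusted p = 0.00591) and Mmp8 fell by 3.68 (SE 0.66, adjusted p = 0.00556). Ngp fell by 9.80 (SE 2.39, adjusted p = 0.0238) and Camp fell by 8.50 (SE 2.37, adjusted p = 0.0405), but with 0 to 2 UMIs in each day 5 sum these sizes depend on the prior count of the fit. Ltf stood at -3.64 (SE 1.09, adjusted p = 0.0523) and Mmp9 at -1.12 (SE 0.42, adjusted p = 0.118). This comparison shares its day 1 sums with the one before. Without CD45+ day 1 the log2 changes of Ngp and Camp were -1.51 and 3.40, so Camp turned sign. They were -8.72 and -6.63 without CD45+ day 5, and -10.11 and -14.51 without heart pool day 5. The calls of Ngp and Camp were lost with cells classed by their own markers (adjusted p = 0.292 and 0.408) and without the second round of naming (0.181 and 0.261). Camp was further lost with DESeq2's test (adjusted p = 0.065) and with total counts as the scale (adjusted p = 0.0562). Ltf stood at -2.59 without CD45+ day 3, -6.40 without heart pool day 1 and -2.61 without heart pool day 3. Mmp9 stood at -1.31 without CD45+ day 1.

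Between day 3 and day 5 edgeR called no gene of 6175 (0%), with 123 at an unadjusted p under 0.05, and DESeq2 called 1. The members' log2 changes ran from -5.49 (Ngp, SE 2.38) to -0.05 (Ltf, SE 0.92), each with an adjusted p of 0.99974. Against day 1, the log2 changes of Cd177 and Lcn2 stayed negative on days 3 and 5 whichever of the 6 sums was left out. On day 3 they ran from -5.49 to -4.78 for Cd177 and from -5.02 to -2.65 for Lcn2. Without the experiment term no gene passed, and on day 3 Cd177 stood at -5.20 (adjusted p = 0.532) and Lcn2 at -4.12 (adjusted p = 0.783). Without the heart pool's day 3 sum, Mmp8 had a log2 change of -1.90 on day 3. Its day 3 call was lost without the heart pool cluster named in a second round (-1.90, adjusted p = 0.269), as was that of Lcn2 (-3.57, adjusted p = 0.14). Without that cluster the day 5 calls were lost as well (Lcn2 adjusted p = 0.128, Mmp8 adjusted p = 0.175). With cells classed by their own markers, Lcn2 did not pass on day 3 (adjusted p = 0.133) or day 5 (adjusted p = 0.0987), nor did Mmp8 on day 3 (adjusted p = 0.134). Cd177 stayed past the threshold on both days under these 2 alternatives (adjusted p from 0.00945 to 0.0354).

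**Figure D3:**
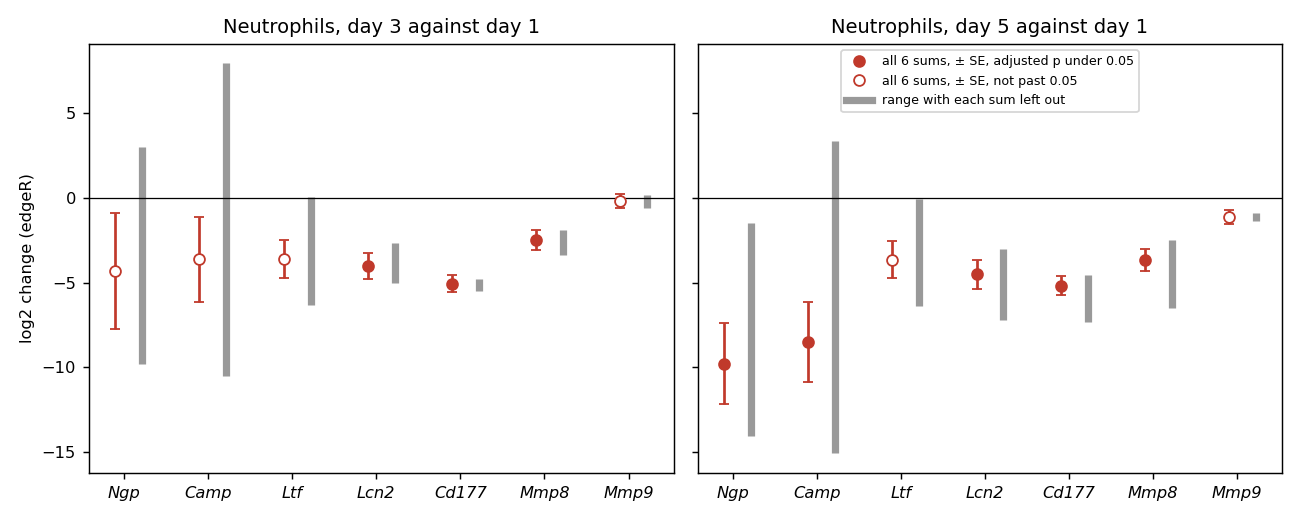
Log2 changes of 7 granule genes in neutrophils from edgeR (circles, bars ± SE, filled where the adjusted p is under 0.05), with grey bars for the range as each of the 6 sums is left out, for day 3 (left) and day 5 (right) against day 1. Cd177, Lcn2 and Mmp8 keep negative values throughout, while the ranges of Ngp, Camp, Ltf and Mmp9 on day 3 and of Camp on day 5 cross 0.

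The scale bears on the smaller changes. Scaled by total UMIs alone, the median of all genes shifted by 0.67 (day 3) and 0.87 (day 5) on the log2 scale, and 379 of 431 genes called were higher on day 3 and 1057 of 1147 on day 5. On that scale Mmp9 had a log2 change of 0.46 on day 3 (adjusted p = 0.423), opposite in sign, and Mmp8 stood at -1.82 (adjusted p = 0.0563). The factor that corrected the totals was 0.541 for CD45+ day 1, the lowest, and 0.855 to 1.46 for the other sums.

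The wider granule programme was described by lists of other genes. Of 11 other secondary granule genes 10 were tested, of which 3 fell on day 3 and 6 on day 5, against 1.83% and 4.97% of all genes called lower. The list's median log2 change was -1.26 on day 3 and -2.12 on day 5, against 0.01 and -0.03 over all genes tested. Wfdc21, a whey acidic protein family member, fell by 2.85 on day 3 (adjusted p = 0.026) and by 4.45 on day 5 (adjusted p = 0.00228). Chil3, a chitinase-like protein of neutrophils and macrophages, fell by 3.05 (adjusted p = 0.0231) and by 2.53 (adjusted p = 0.0391). Itgam, the CD11b chain of the Mac-1 integrin, fell by 1.70 on day 3 (adjusted p = 0.03), and Hp (haptoglobin) fell by 2.31 on day 5 (adjusted p = 0.0231). No gene of the list was called higher. Lyz2, the lysozyme gene, had positive log2 changes of 1.09 on day 3 (adjusted p = 0.329) and 0.86 on day 5 (adjusted p = 0.364).

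Of 10 other tertiary and secretory granule genes, 9 were tested. On day 3, 3 of them fell, and on day 5, 5 fell (medians -1.33 and -1.94), beside the same 1.83% and 4.97% of all genes. Mmp25, a membrane-anchored metalloproteinase, fell by 3.20 on day 3 (adjusted p = 0.0285). Fpr1, the receptor of formyl peptides, fell by 2.10 on day 3 (adjusted p = 0.0265) and by 3.47 on day 5 (adjusted p = 0.00181), and Adam8, a sheddase, fell by 1.83 (adjusted p = 0.0224) and by 2.17 (adjusted p = 0.00647). Slc11a1, a metal transporter of phagosomes, fell by 2.57 on day 5 (adjusted p = 0.00591). Of 7 other primary granule genes only 3 were tested, and Srgn, the serglycin proteoglycan of many leukocyte granules, fell by 1.99 on day 5 (adjusted p = 0.0287).

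Of 9 inhibitors of granule enzymes 7 were tested. None passed on day 3, and 3 fell on day 5 (4.97% of all genes did): Stfa3 by 4.08 (adjusted p = 0.0488) and Stfa2 by 3.77 (adjusted p = 0.0176), which are stefin A cysteine protease inhibitors with near-identical copies that could share reads, and Slpi, an elastase inhibitor, by 1.64 (adjusted p = 0.0461). Transcription factors of granule formation (5 of 8 tested, Cebpe and Cebpb among them) and genes of cycling precursors (4 of 8 tested) had no call on either day, and their medians lay between -0.67 and -0.12. Of 10 receptor genes of mature neutrophils, 1 fell on day 3 (Fpr1, 1.83% of all genes being called lower) and 5 on day 5 (4.97%). Trem1, an activating receptor, fell by 1.79 (adjusted p = 0.0232) and Fpr2, another formyl peptide receptor, fell by 1.94 (adjusted p = 0.0126). Fpr1 and Fpr2 were also in the list of other tertiary and secretory granule genes, so their calls are counted in both lists.

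In the blood and heart pool, most Camp UMIs of Hashtags 2 to 6 came from a pair of neutrophils in each (81.0% to 99.8%), while Ngp was spread more widely in some hashtags. The Ngp level in neutrophils of Hashtags 1 to 7 was 0.428, 2.13, 0.685, 1.41, 4.90, 5.23 and 0.0711 per 10000. One neutrophil of Hashtag 6, with 26067 UMIs, held 1643 of the 1650 Camp UMIs (99.6%) and 1014 of the 1197 Ngp UMIs (84.7%) of its hashtag. Ngp was found in 64 of 1073 neutrophils of Hashtag 1 and 135 of 995 of Hashtag 4, where the top cell held 17.6% and 14.5% of it. Without the top cell, Camp in Hashtag 6 went from 7.21 to 0.0310. Neutrophils with any Camp UMI were 0.373% to 1.31% of those of a hashtag, so the Camp levels measure a few cells.

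Mmp8 varied among neutrophils of the pool with at least 20 Camp UMIs. In the cell of Hashtag 6 no Mmp8 UMI was counted, nor in the Hashtag 5 cell with the most Camp (1040 UMIs), and the other 6 such neutrophils held 4 to 49. Cebpe, the factor that drives secondary granule genes, was counted in both cells without Mmp8 (20 and 9 UMIs). It was also counted in some cells with Mmp8 (5, 1, 3 and 3 UMIs), and the others held 0. The cells without Mmp8 were deeper (26067 and 18477 UMIs, against 8765 to 14246), and the part of depth was not tested. The 21 cells of CD45+ day 1 with as much Camp held 3 to 23 Mmp8 UMIs (median 16), and none of them held Mpo or Elane.

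Lcn2 in neutrophils of Hashtags 1 to 7 stood at 17.7, 30.6, 21.7, 33.2, 20.6, 34.1 and 7.15 per 10000. Hashtags 2, 4 and 6 were the highest, with 84.8% to 90.2% of neutrophils positive, and Hashtag 7 was the lowest, with 41.1%. Mmp8 took another order, at 8.57, 6.18, 6.71, 7.60, 6.95, 5.11 and 2.27 per 10000, so that Hashtags 6 and 7 were lowest. Cd177 was highest in Hashtag 6 at 2.11 (1.93 to 2.31) and lowest in Hashtag 7 at 0.340 (0.246 to 0.457), and it stood between 0.657 and 1.19 in the other 5. Mmp9 ran only from 19.4 to 23.3.

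**Figure D4:**
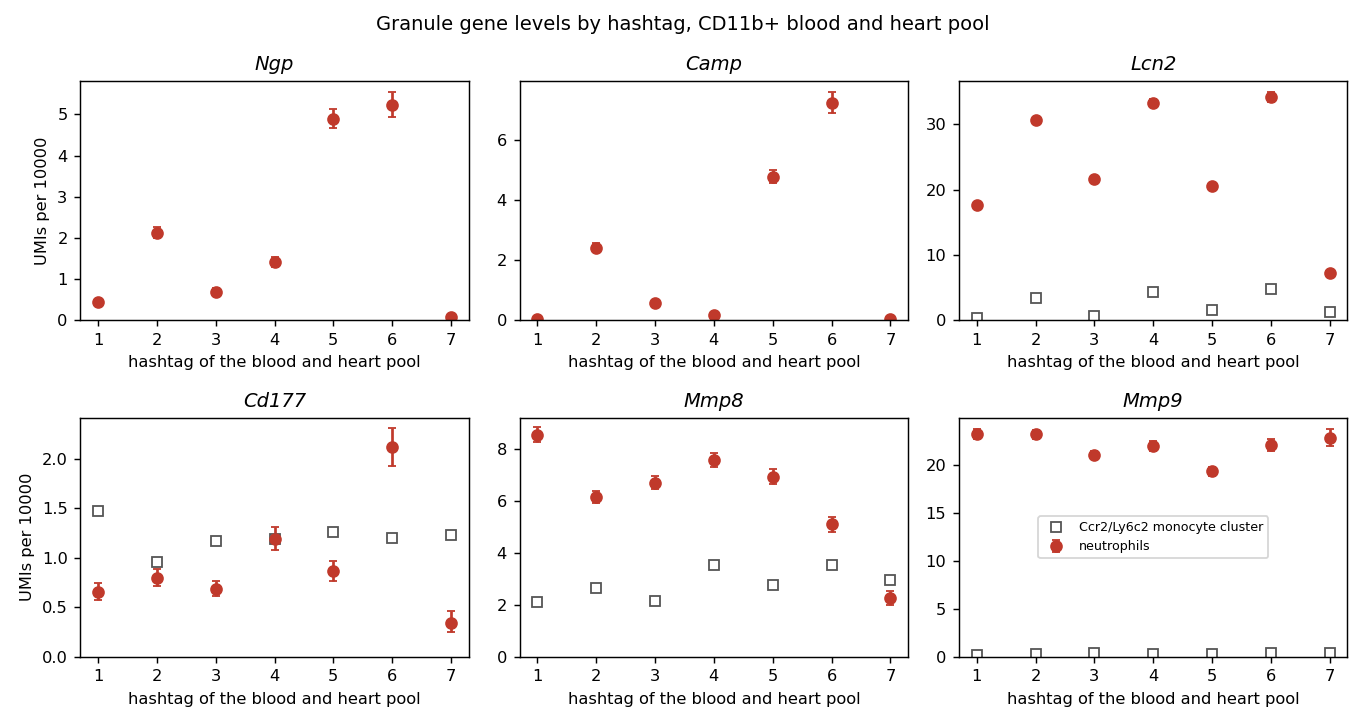
UMIs per 10000 of 6 granule genes by hashtag in neutrophils of the blood and heart pool (circles, exact 95% counting intervals) and, for 4 genes, in the monocyte cluster with Ccr2 and Ly6c2 (open squares). Lcn2 is high in Hashtags 2, 4 and 6, Mmp8 is lowest in Hashtags 6 and 7, and Mmp9 stays between 19.4 and 23.3.

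Mmp8 and Cd177 were also seen in monocytes. A cluster of 2028 cells led by Chil3, Ccr2, F13a1 and Ly6c2, genes of classical monocytes, had 2.65 UMIs of Mmp8 per 10000 (2.59 to 2.71) with 78.9% of cells positive, and 1.24 of Cd177 (1.20 to 1.28) with 61.0% positive, at a median of 13791 UMIs. In the 59 T cells of the pool (median 7658 UMIs), which should lack both, Mmp8 stood at 0.174 and Cd177 was not detected (limit of 3 counts 0.0653). The monocyte values lay above those of T cells by more than counting error. The Lcn2 level of this cluster was 0.270, 3.44, 0.629, 4.31, 1.54, 4.72 and 1.19 in Hashtags 1 to 7, so Hashtags 2, 4 and 6 were the highest there as in neutrophils. Mmp9 stood at only 0.288 in these monocytes.

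Antibody counts were read against Mmp8 in neutrophils of each hashtag, cells being split by at least 1 Mmp8 UMI after thinning to 1000 UMIs. Median CD62L (L-selectin, shed on activation) was higher in cells with Mmp8 in 7 of 7 hashtags (93 to 117 against 57 to 94 counts). Median CD11b, an integrin chain brought to the surface from granules, was lower in 7 of 7 (12 to 17 against 16 to 23), and Ly6G was higher in 3 and lower in 2. As a share of all antibody counts of a cell, CD62L was 33.2% to 38.2% with Mmp8 and 19.5% to 33.8% without. Cells with Mmp8 also had more RNA before thinning in all 7 hashtags (medians 3322.5 to 4155 against 2990 to 3646 UMIs), and the part of that in the antibody counts was not tested. Hashtags shared 1 library, so they are no replicates.

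**Figure D5:**
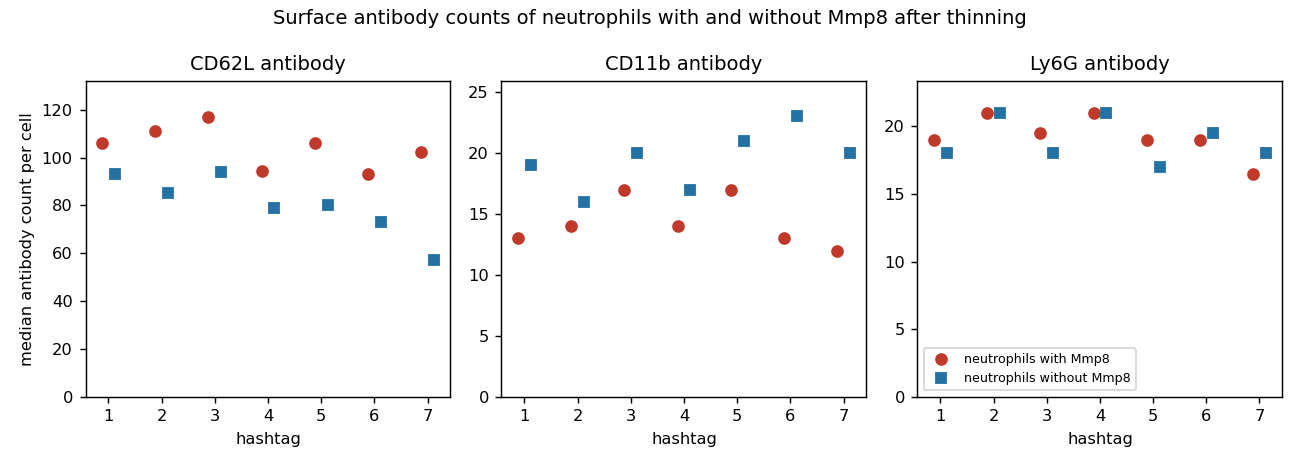
Median antibody counts per cell (CD62L, CD11b and Ly6G) in neutrophils with (circles) and without (squares) Mmp8 after thinning, by hashtag of the blood and heart pool. In all 7 hashtags CD62L is higher and CD11b lower in cells with Mmp8.

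Granule transcripts were also counted outside neutrophils, and the part of free RNA in them was not tested. On CD45+ day 1 the 32 B, T and NK cells had 1.08 UMIs of Ngp per 10000 and 3.33 of Lcn2, against 176 and 138 in neutrophils. Their Ngp to Lcn2 ratio was 0.324 (12 and 37 UMIs), against 1.28 in neutrophils and 0.0563 in an unnamed cluster of 243 cells (median 9417 UMIs) led by Saa3, Cxcl3 and Arg1, with 28.6 UMIs of Lcn2 per 10000 and 2.59 of Mmp8. Thinned, 62.1% of all other cells of that day had Lcn2 (96.8% of neutrophils), 15.03% had Mmp8 (44.0%), 13.1% Ngp (64.4%) and 0.980% Camp (21.8%). When each cell was classed by its own marker UMIs instead, 423 cells of CD45+ day 1 counted as neutrophils, and their levels were 52.4 for Ngp, 6.21 for Camp, 61.0 for Lcn2 and 2.14 for Cd177.

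On later days the neutrophil shares of some genes came close to those of other cells. On heart pool day 3, 2.57% of thinned neutrophils and 4.22% of thinned other cells had Mmp8, and 1.23% and 1.89% had Cd177, so neither share was above that of the other cells, of which 1094 of 1161 were monocytes/macrophages. Lcn2, at 13.5% and 1.81%, and Mmp9, at 77.3% and 5.43%, were above it. On CD45+ day 3 the neutrophil shares of Lcn2 (38.5% against 6.19%) and Mmp8 (18.5% against 4.08%) were above those of other cells as well. Unthinned, Mmp8 was found in 7.86% of heart pool day 3 neutrophils and 38.1% of the deeper other cells, so unthinned shares cannot be compared between classes.

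Over the 13 neutrophil sums of at least 30 cells, the genes whose log2 level was most like that of a member were found among 4375 genes. They are a description over sums that share libraries. For Ngp they were Triobp (Pearson r 0.84), Ifitm6 (0.83) and Anxa11 (0.82), for Lcn2 Wfdc21 (0.96), Anxa11 (0.91) and Plp2 (0.91), and for Mmp8 Retnlg (0.98) and Sqor (0.96). The log2 level of Mmp8 was thus most closely correlated with that of Retnlg, which encodes a secreted resistin-like protein of neutrophils.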

How the data were processed

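The data were 7 matrices from droplet libraries of mouse leukocytes, 5 of CD45+ heart cells and 2 hashed CD11b+ pools. The values deposited by the authors are UMI counts for each gene in each barcode, not normalized. Cell Ranger 3.0.2 made the matrices of the pools, per the file headers. The genome build is named as mm10 per the submitters' processing notes; settings of the counting are not given in the sources used here. The members and gene lists were chosen with earlier results of these data known.

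Cells under 200 genes or over 10% mitochondrial UMIs were left out; 17.4% of heart pool barcodes were over that limit. A mixture model of hashtag counts kept barcodes with 1 hashtag (several on 6.28% and 12.5% of barcodes of the heart pool and the blood and heart pool, none on 7.81% and 1.40%). Scrublet marked so few cells of the CD45+ libraries (18 in all, removed) that it cannot be taken to have worked, so doublets remain. Clusters came from scanpy 1.11.5 (2000 variable genes without granule genes, 30 components, 15 neighbours, resolution 0.5, seed 0) and were named from fixed marker lists (at least 3 markers in 20% of cells at 1.5 times the other clusters). A second round of naming, against the cells not yet named neutrophils, was chosen after the data were seen.

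Sums of UMIs over at least 30 neutrophils were compared by edgeR 4.0.16 (with limma 3.58.1, in R 4.3.3): filterByExpr, TMM, glmQLFit and two-sided glmQLFTest with day and experiment as terms, and Benjamini-Hochberg adjustment, threshold 0.05. All adjusted p-values are from this test unless DESeq2 1.42.0 is named. Genes of both annotations were joined by identifier (27514 shared). The fit was tested on simulated data with 200 genes changed by 2 on the log2 scale. It recovered 66.5% of them for day 3 against day 1 and 61% for day 5 against day 1. For day 5 against day 3 it recovered 49%, so a lack of calls does not show a lack of change. False calls were 2.92%, 2.4% and 3.92% of all calls, in the same order. All 9 members are named. Of each list, at most the 3 genes with the largest log2 change past the threshold are given with values, and Lyz2 besides. Genes of like pattern, 3 for each of 3 members, needed a mean of 20 CPM; 1 of them is not reported here. Alternatives covered scaling, test, filter, block, days fitted, each sum, granule genes in totals or clusters, cell classes, an antibody gate, the mitochondrial limit, thinning and the minimum for a positive cell. Steady state, day 7 and the blood and heart pool entered no test.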

Additional observations from a re-analysis of the deposited data

Results flagged for a closer look

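Summed over all neutrophils of a day, Ngp, Camp and Ltf went opposite ways between days 1 and 3 in the 2 heart experiments. In CD45+ neutrophils the difference, day 3 minus day 1, was -175.67 UMIs per 10000 for Ngp, -21.06 for Camp and -9.54 for Ltf. In neutrophils of the heart pool it was 0.643 for Ngp, 0.247 for Camp and 0.191 for Ltf. The heart pool's direction for Ngp rests on 1 cell, which also held 88 of the 100 Camp UMIs of day 3. Without that cell Ngp stood at 0.00248 on day 3 against 0.0534 on day 1, lower as in the CD45+ libraries. Camp (0.0297, 12 UMIs, against 0) and Ltf (0.334, 135 UMIs, against 0.276, 31 UMIs) were still higher on day 3. Whether these 2 differences exceed counting error was not tested. Between days 3 and 5, Lcn2 differed by -10.43 in the CD45+ libraries and by 2.80 in the heart pool. With 1 sum per day and experiment, the difference between the experiments was not tested.

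Cells of CD45+ day 7 that were not named neutrophils held 8 members above the level in such cells at steady state. The day 7 levels were 0.193 UMIs per 10000 for Mpo, 0.776 for Elane, 0.0708 for Ltf, 1.01 for Camp, 1.47 for Ngp, 0.136 for Lcn2, 0.0507 for Cd177 and 0.0533 for Mmp8. Without the 2 cells with at least 20 UMIs of Camp or Elane they were 0.0255, 0.0668, 0.00878, 0.154, 0.198, 0.0307, 0.0457 and 0.0536, in the same order. Ngp was still found in 11.2% and Camp in 8.73% of the other 1764 cells. The B, T and NK cells of that day had 0.231 UMIs of Ngp and 0.141 of Camp per 10000, and the part of free RNA was not tested. Day 7 had 1 library, so the difference from steady state was not tested.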

How the results depend on the processing

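Counts of genes called moved with several choices. Between day 1 and day 3, 146 genes became 6 with cells classed by their own markers, 35 without the second round of naming, 0 without the experiment term, 307 with no filter on low counts and 431 with total counts as the scale. Between day 1 and day 5, 419 became 25 by own markers, 28 without the second round, 0 without the experiment term and 1147 by total counts. Between day 3 and day 5, 0 became 2 without the second round, 11 with no filter, 28 with only those days fitted and 1 with DESeq2's test. With each sum left out in turn, counts ran from 54 to 719, from 51 to 1001 and from 0 to 31. Log2 changes that turned sign were small or rested on few UMIs: Mmp9 on day 3 against day 1 (0.37 by own markers, 0.46 by total counts), Cd177 on day 5 against day 3 (0.14 and 0.10 under the same), and Ltf on day 5 against day 3 (0.051 with DESeq2's test, 0.22 without the experiment term, 0.082 with no mitochondrial limit, 0.34 without the top Ngp cells, 0.18 by total counts). With each sum left out, day 3 against day 1 ran from -6.33 to 0.048 for Ltf, -10.55 to 7.96 for Camp, -9.79 to 3.00 for Ngp and -0.58 to 0.19 for Mmp9, and day 5 against day 1 from -15.1 to 3.40 for Camp. Day 5 against day 3 ran from -1.79 to 3.52 for Ltf, -12.29 to 1.96 for Camp, -3.29 to 0.93 for Lcn2, -2.34 to 0.44 for Cd177 and -3.97 to 0.0016 for Mmp8. Of 268 other values of members' log2 changes, 226 kept their direction and side of the threshold. The causes were not tested. No paired analysis was possible because the labels give no replicate numbers that groups share. Depth limits CD45+ steady state most (7 neutrophils, 3 counts being 2.01 per 10000), then days 7 and 5 (0.389 and 0.295), and levels under these rest on 1 or 2 UMIs.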
